A study of Mus musculus with 13 samples.

Results

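Embigin, its partner basigin and the genes of lactate transport, sensing and conversion were followed in sorted splenic dendritic cells. The 8 genes were Emb, Bsg, Slc16a1, Slc16a3, Slc16a7, Hcar1, Ldha and Ldhb, out of 22180 genes that had a probe set listed with a single symbol. For each gene the brightest probe set on average was read, and both probe sets of Emb are given, so that 9 of 41345 probe sets enter. A probe set listed for both Csnk1d and Slc16a3 was left out.

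The cells were CD205+CD8+ dendritic cells from the spleens of 6-week-old C57Bl/6 littermates, all labelled male. Every mouse, controls included, carried a subcutaneous B16 melanoma that secreted FLT3L, which drives the expansion of dendritic cells, so none of the groups shows the spleen without a tumour or without excess FLT3L. At 5 days after the tumour cells the mice received 100 ul of PBS intraperitoneally, either with 50 ug of muramyl dipeptide (MDP), a bacterial cell wall fragment sensed by NOD2, or alone. After 24 h the cells were sorted by surface CD103, the integrin chain encoded by Itgae. The 13 arrays fall into CD103 high cells of MDP mice (n = 3), CD103 low cells of MDP mice (n = 3), CD103 high cells of PBS mice (n = 3) and CD103 low cells of PBS mice (n = 4). The labels do not say whether separate arrays stand for separate mice, and arrays of one treatment and number may share a mouse, so the p-values rest on a spread between arrays that may be technical.

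Embigin and basigin are related membrane proteins of the immunoglobulin superfamily. They escort monocarboxylate transporters, which move lactate and pyruvate together with a proton, to the cell surface. Basigin is the usual partner of MCT1 (Slc16a1) and MCT4 (Slc16a3), whereas MCT2 (Slc16a7) is known to prefer embigin. Lactate dehydrogenase interconverts pyruvate and lactate, with the Ldha subunit favouring lactate and the Ldhb subunit favouring pyruvate, and HCAR1 is a G protein-coupled receptor for extracellular lactate. Dendritic cells are known to raise glycolysis when microbial products activate them.

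The stretch just before the start site is shown for the 3 genes whose arrays separated the groups in the most comparisons, and for Ldha, a well-known hypoxia-responsive gene. The sequences are RefSeq's for build GRCm38.p6, 250 bases each, 5′ to 3′ on the gene's strand. Emb lies on the plus strand at chr13:117220323-117220572, Slc16a1 on the plus strand at chr3:104638414-104638663, Hcar1 on the minus strand at chr5:123880004-123880253 and the first Ldha window on the plus strand at chr7:46845554-46845803. Capitals mark matches to ACGTG, the core of the hypoxia response element, and to CACGTG, the E-box of Myc-type factors, which contains the first motif; overlapping matches on either strand were merged.
Emb: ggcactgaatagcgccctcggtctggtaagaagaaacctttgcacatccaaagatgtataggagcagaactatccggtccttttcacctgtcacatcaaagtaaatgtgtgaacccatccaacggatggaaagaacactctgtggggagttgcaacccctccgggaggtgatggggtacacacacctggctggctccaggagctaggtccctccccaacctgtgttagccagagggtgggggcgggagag
Slc16a1: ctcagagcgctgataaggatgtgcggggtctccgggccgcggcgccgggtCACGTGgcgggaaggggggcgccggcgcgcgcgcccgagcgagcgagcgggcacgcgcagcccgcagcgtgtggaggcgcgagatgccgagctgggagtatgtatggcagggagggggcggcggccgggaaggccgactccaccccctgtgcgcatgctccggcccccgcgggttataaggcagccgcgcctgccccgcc
Hcar1: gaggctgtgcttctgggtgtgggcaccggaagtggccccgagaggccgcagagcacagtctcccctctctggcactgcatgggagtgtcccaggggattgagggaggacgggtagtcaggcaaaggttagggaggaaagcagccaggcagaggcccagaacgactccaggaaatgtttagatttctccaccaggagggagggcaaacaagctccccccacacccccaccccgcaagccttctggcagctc
Ldha: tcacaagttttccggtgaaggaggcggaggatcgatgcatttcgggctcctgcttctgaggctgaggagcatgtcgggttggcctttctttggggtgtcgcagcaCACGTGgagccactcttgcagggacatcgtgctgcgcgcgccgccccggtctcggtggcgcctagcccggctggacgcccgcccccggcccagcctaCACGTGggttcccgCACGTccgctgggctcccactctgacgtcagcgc

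ACGTG was found in 16.7% and CACGTG in 6.04% of 32536 distinct promoter windows of this length. The Slc16a1 window held 1 such stretch, a CACGTG, and the first Ldha window held 3, of which 2 were CACGTG. The second Ldha window and the Ldhb window held none. The Slc16a3 window held 2 stretches of ACGTG. No match to ACGTG, or to the E2F site TTTNGCGC and the ETS-IRF composite GGAANNGAAA on either strand, lies in the windows of Emb and Hcar1. The E2F site occurs in 1.14% and the composite in 2.31% of all windows. The windows also differ in base composition, with 54.8% G and C for Emb, 76.4% for Slc16a1, 62.4% for Hcar1 and 67.2% for the first Ldha window. These matches describe letters only.

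Values are the authors' log2 RMA values, so that a difference of 1 is a doubling, and the median gene lay at 5.27. Olfactory receptor genes, which dendritic cells are not known to use, gave a measure of the signal of a silent probe set. The 95th percentile of their means was 5.12. Of the defining markers of CD8+ dendritic cells, 13 of 14 were measured and all 13 were above that level, with a list mean of 11.01 to 11.15 in the 13 arrays. Some markers of other cells had a mean over all arrays below that level. These were S100a8 (neutrophils) at 2.53, Cd3e (T cells) at 4.65, Ncr1 (natural killer cells) at 3.74 and Klf1 (erythroid cells) at 4.87. Tyrp1 and Mlana (melanoma) were also below it, at 4.48 and 5.01. Others were above it: Siglech (plasmacytoid dendritic cells) at 5.21, Sirpa (cDC2, another dendritic cell type) at 5.65 and Pmel (melanoma) at 5.84. So were Ccr2 and Ly6c2 (monocytes), at 5.97 and 7.64, and Ms4a1 (B cells), at 6.90. Itgae averaged 11.35 ± 0.21 in MDP and 10.15 ± 0.08 in PBS CD103 high cells, and 10.13 ± 0.52 in MDP and 7.92 ± 0.41 in PBS CD103 low cells (SD). The Itgae means of CD103 low cells of MDP mice and CD103 high cells of PBS mice thus differed by less than their spread, although the names of their gates differ. Xist was at 10.98 to 11.21 in 7 arrays and at 4.47 to 6.69 in the other 6, although every mouse is labelled male. The 7 arrays were 2 of 3 of MDP and 2 of 3 of PBS CD103 high cells, and 1 of 3 of MDP and 2 of 4 of PBS CD103 low cells.

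Emb separated the 4 groups more widely than any of the other 7 genes. Its main probe set, 17290083, read 6.81, 6.85 and 6.98 in CD103 high cells of MDP mice, against 4.90, 5.36 and 5.58 in CD103 high cells of PBS mice. It read 7.63, 7.24 and 7.29 in CD103 low cells of MDP mice, against 6.77, 6.90, 6.56 and 6.92 in CD103 low cells of PBS mice. The CD103 high cells of PBS mice stood apart at the bottom, with 1 of 3 arrays below the olfactory level, and the CD103 low cells of MDP mice stood at the top. The RNA is that of all sorted cells together, so fewer cells that use a gene and less RNA per cell cannot be told apart.

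**Figure D1:**
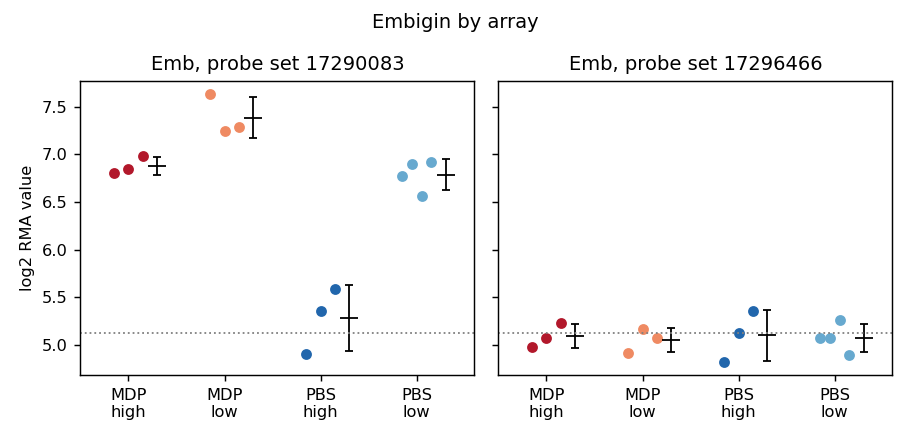
Log2 RMA value (vertical axis) of the 2 Emb probe sets in each array, by treatment and CD103 sort gate; points are arrays, black bars the group mean ± SD, and the dotted line the olfactory level of 5.12. In the left panel the 3 arrays of PBS CD103 high cells lie between 4.90 and 5.58, below all others, whereas the right panel holds all arrays between 4.82 and 5.36.

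In order of level, Emb averaged 7.39 ± 0.21 in CD103 low cells of MDP mice, 6.88 ± 0.09 in CD103 high cells of MDP mice, 6.79 ± 0.16 in CD103 low cells of PBS mice and 5.28 ± 0.35 in CD103 high cells of PBS mice (SD, n = 3, 3, 4 and 3). The middle places did not differ beyond their spread: the arrays overlapped, and MDP CD103 high minus PBS CD103 low was 0.09 ± 0.15 (SE). The largest gap, MDP CD103 low minus PBS CD103 high, was 2.11 ± 0.16. MDP CD103 high cells had a higher Itgae value than any other group, and PBS CD103 low cells the lowest, yet Emb overlapped between these 2 groups.

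Between the sort gates in PBS mice Emb was 1.51 ± 0.15 lower in CD103 high cells (log2 difference ± SE), which is 2.84-fold. In CD103 high cells it was 1.60 ± 0.16 higher, or 3.03-fold, in MDP than in PBS mice. The genes were chosen by these differences and by that of Hcar1 in PBS mice, known from earlier results of these data, and these values are given as a description, without a test. Both folds involve CD103 high cells of PBS mice, whose Emb mean of 5.28 is near the olfactory level of 5.12. Within the arrays of one Xist pattern, Emb was lower by 1.54 (2 against 2 arrays) and by 1.32 (1 against 2 arrays) in CD103 high PBS cells. MDP minus PBS in CD103 high cells was 1.78 with 2 against 2 arrays and 1.22 with 1 against 1. These values come from the same arrays that chose the gene, so they describe the differences and add no support.

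The 2 remaining comparisons of Emb share arrays with those and pointed the same way with smaller sizes. Emb was −0.51 ± 0.16 in CD103 high against CD103 low cells of MDP mice (limma, adjusted p = 0.254 over all genes, 95% interval −0.85 to −0.16). The groups did not overlap. It was 0.60 ± 0.15 in MDP against PBS mice among CD103 low cells (adjusted p = 0.706, 95% interval 0.27 to 0.92), again without overlap. Neither passed the threshold of 0.05. The MDP effect in CD103 high minus that in CD103 low cells was 1.00 ± 0.22, a value built from the comparisons that chose the gene and given without a test. Without replicate 1 of the MDP CD103 low cells, the array with the highest Emb value, the difference between the sort gates in MDP mice was −0.39 ± 0.17 and MDP minus PBS in CD103 low cells was 0.48 ± 0.16.

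The second Emb probe set, 17296466, showed none of this. It read 4.97, 5.07 and 5.22 in MDP and 4.82, 5.13 and 5.36 in PBS CD103 high cells. It read 4.92, 5.16 and 5.07 in MDP and 5.07, 5.07, 5.26 and 4.89 in PBS CD103 low cells. All groups overlapped, and the mean over all arrays, 5.08, was below the olfactory level. Differences ran from −0.02 to 0.04, with a 95% interval of −0.25 to 0.31 between the sort gates in PBS mice, fitted among all probe sets. Averaging both probe sets made the Emb differences −0.74 between the sort gates in PBS mice and 0.79 between MDP and PBS in CD103 high cells.

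Basigin, the other chaperone, was abundant and flat. Bsg read 9.91, 9.95 and 10.03 in MDP and 9.95, 9.98 and 9.93 in PBS CD103 high cells. It read 9.95, 9.95 and 9.99 in MDP and 9.91, 9.96, 9.92 and 9.95 in PBS CD103 low cells. All groups overlapped, and the 4 differences were 0.00 to 0.02. The 95% interval between the sort gates in MDP mice was −0.13 to 0.13, and that for MDP against PBS in CD103 high cells was −0.12 to 0.14. Neuroplastin (Nptn), another member of the basigin family, averaged 10.10 ± 0.09 in MDP and 10.07 ± 0.02 in PBS CD103 high cells, and did not pass in any comparison.

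Of the transporters, Slc16a1 (MCT1) came closest to the Emb pattern. It read 7.58, 7.67 and 7.62 in MDP and 7.18, 7.17 and 6.98 in PBS CD103 high cells. It read 7.49, 7.78 and 7.58 in MDP and 7.50, 7.78, 7.55 and 7.24 in PBS CD103 low cells. The CD103 high cells of PBS mice were below every other array, as for Emb, but the other 3 groups overlapped one another.

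Slc16a1 was 0.51 ± 0.12 in MDP against PBS CD103 high cells, 1.43-fold, with 95% interval 0.25 to 0.78 and adjusted p = 0.0525, just outside the threshold. It passed in 7 of 23 alternative analyses, whose adjusted p ran from 0.0228 to 0.597. Leaving out replicate 1 of the MDP CD103 low cells gave an adjusted p of 0.0433, and leaving out replicates 3 or 6 of the PBS CD103 low cells gave 0.0331 and 0.0241. Those CD103 low arrays are not among the ones compared, so the difference itself stayed at 0.51. They were the only 3 of 13 leave-outs that passed, and the adjusted p ran up to 0.209. Without any of the CD103 high arrays compared, it did not pass. Within one Xist pattern the difference was 0.47 (2 against 2 arrays) and 0.60 (1 against 1). In PBS mice it was −0.41 ± 0.11 in CD103 high against CD103 low cells (adjusted p = 0.324), without overlap. In MDP mice the same difference was 0.01 ± 0.12, with a 95% interval of −0.26 to 0.27, and MDP against PBS in CD103 low cells gave 0.10 ± 0.11, with an interval of −0.15 to 0.34. The MDP effect in CD103 high minus that in CD103 low cells was 0.41 ± 0.17 (adjusted p = 0.439).

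**Figure D2:**
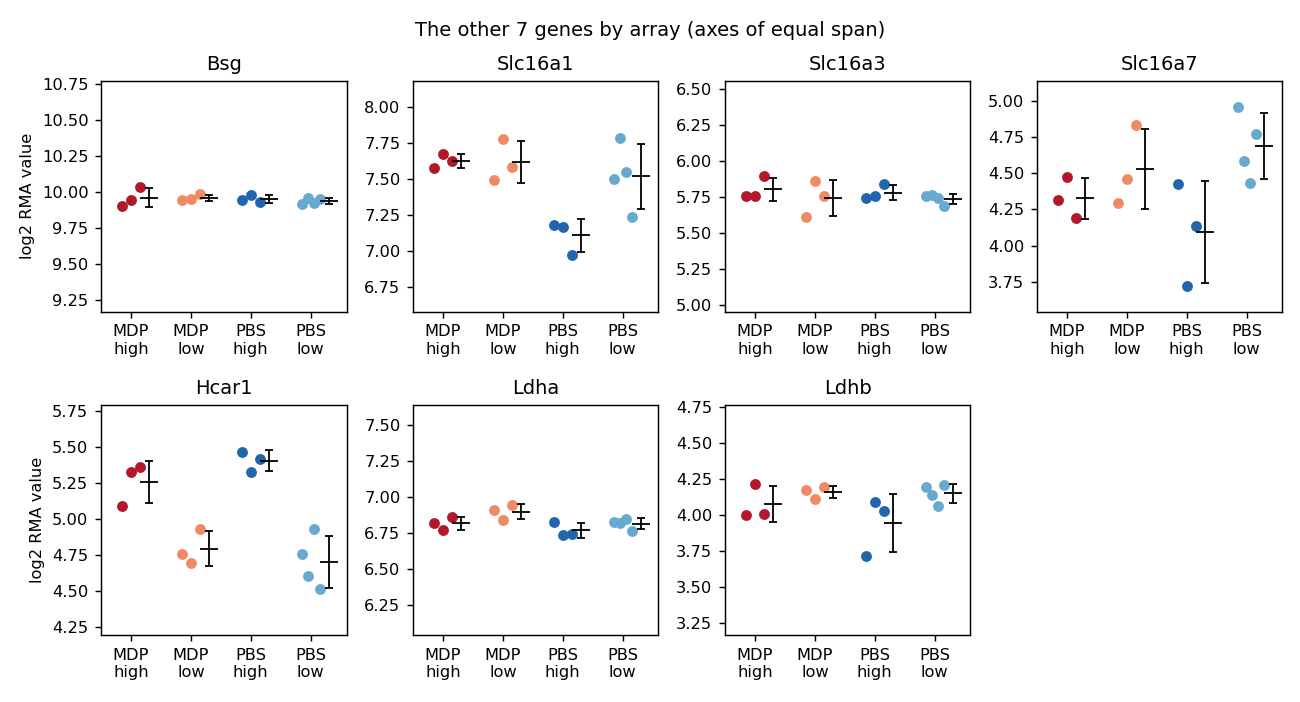
Log2 RMA value (vertical axis, of equal span in each panel) of the other 7 genes by array, treatment and sort gate; points are arrays and black bars the group mean ± SD. Slc16a1 is lowest in PBS CD103 high cells (6.98 to 7.18), Hcar1 is higher in both CD103 high groups, and Bsg, Slc16a3 and Ldha are flat.

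Slc16a3 (MCT4), the lactate exporter of glycolytic cells, was between 5.61 and 5.89 in every array. Its 4 differences ran from 0.01 to 0.06, and the 95% interval for MDP against PBS CD103 high cells was −0.14 to 0.19. All groups overlapped. Its value was the same to 5 decimals in 3 arrays.

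Slc16a7 (MCT2) was below the olfactory level in every array. It read 4.31, 4.48 and 4.19 in MDP and 4.43, 3.72 and 4.13 in PBS CD103 high cells. It read 4.29, 4.46 and 4.83 in MDP and 4.96, 4.59, 4.43 and 4.77 in PBS CD103 low cells. Among PBS mice the groups did not overlap by a margin under the second decimal, and CD103 high against CD103 low gave −0.59 ± 0.17 (adjusted p = 0.363). In MDP mice that difference was −0.20 ± 0.19 with overlap, and MDP against PBS gave 0.23 ± 0.19 in CD103 high and −0.16 ± 0.17 in CD103 low cells.

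The lactate receptor gene Hcar1 ran against Emb between the sort gates. It read 5.09, 5.32 and 5.36 in CD103 high against 4.76, 4.70 and 4.93 in CD103 low cells of MDP mice. It read 5.47, 5.32 and 5.42 in CD103 high against 4.75, 4.60, 4.93 and 4.52 in CD103 low cells of PBS mice. In both treatments every CD103 high array was above every CD103 low array. All 7 CD103 low arrays, and the MDP CD103 high array at 5.09, lay below the olfactory level of 5.12, so no fold is given.

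In PBS mice, where Hcar1 was chosen, it was 0.70 ± 0.10 higher in CD103 high cells, given without a test. In MDP mice it was 0.46 ± 0.11 in CD103 high against CD103 low cells, with 95% interval 0.22 to 0.71. That value is not independent of the choice, since the arrays of both treatments share 1 estimate of the spread. The unadjusted p was 0.00119 and the adjusted p over all genes 0.107 in limma, so the gene did not pass, and over 22 alternatives the adjusted p was 0.0648 to 0.309. Within one Xist pattern the difference in MDP mice was 0.41 (2 against 1 array) and 0.36 (1 against 2). MDP against PBS gave −0.15 ± 0.11 in CD103 high and 0.09 ± 0.10 in CD103 low cells, with overlap in both (95% intervals −0.39 to 0.10 and −0.13 to 0.32). Hcar2, the related receptor for ketone bodies and niacin, was 4.56 to 4.94 in all arrays and did not pass in any comparison.

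The subunits of lactate dehydrogenase varied little. Ldha was 6.77 to 6.86 in MDP and 6.73 to 6.83 in PBS CD103 high cells, and 6.84 to 6.94 in MDP and 6.76 to 6.85 in PBS CD103 low cells. The groups overlapped in all 4 comparisons, and the differences ran from −0.08 to 0.08, with adjusted p of 0.728 to 0.903. Ldhb was below the olfactory level, at 4.00 to 4.22 in MDP and 3.71 to 4.09 in PBS CD103 high cells and at 4.11 to 4.20 in MDP and 4.06 to 4.21 in PBS CD103 low cells. Its difference between the sort gates in PBS mice was −0.21 ± 0.09 (adjusted p = 0.57), with overlap.

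**Figure D3:**
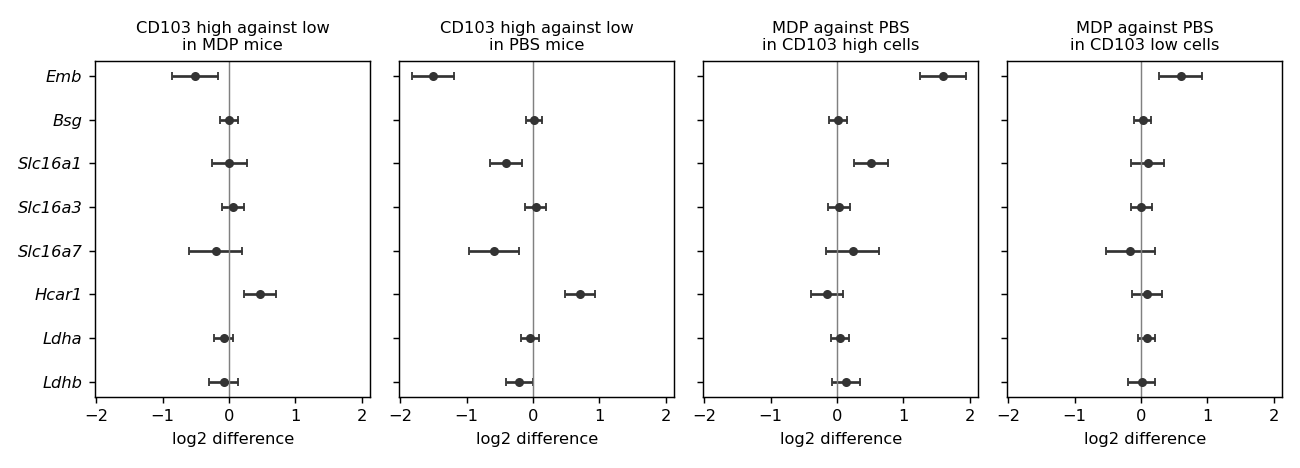
Log2 difference (horizontal axis) of each of the 8 genes in 4 comparisons; points are limma estimates and bars 95% intervals, with the vertical line at 0. Emb spans −1.51 to 1.60, Slc16a1 reaches 0.51 in MDP against PBS CD103 high cells, and the intervals of Bsg, Slc16a3 and Ldha contain 0 in every panel.

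Against the background of all genes, the calls among the 8 were as follows. Between the sort gates in MDP mice 0 of 8 genes passed in limma, where 0.523% of all genes did, and 2 of 8 (Hcar1 higher, Emb lower) did not overlap, where 14.4% of all genes did not. Unadjusted p-values were under 0.05 for 2 of the 8, the same genes, and for 10.2% of all genes there. Both counts rest on the genes for which the set was chosen. Their values here share arrays or the estimate of the spread with that choice, so the counts add no support. In PBS mice 2 of 8 passed, Emb and Hcar1, for which the genes were chosen, where 0.0766% of all genes passed. Hcar1, Emb, Slc16a1 and Slc16a7 did not overlap there, 4 of 8 against 8.53% of all genes, and 2 of these 4 are the chosen ones.

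In MDP against PBS CD103 high cells 1 of 8 passed, Emb again by choice, against 1.82% of all genes, and 2 of 8 (Emb and Slc16a1) did not overlap, against 19.0%. In CD103 low cells 0 of 8 passed in limma, against 0.00451%, and 1 of 8, Emb, did not overlap, against 5.5%. Unadjusted p-values there were under 0.05 for Emb among the 8 and for 6.06% of all genes. Emb shares the PBS CD103 low arrays with a comparison that chose it, so its place in these counts adds no support. In the difference of the MDP effects between the sort gates, 0 of the 7 genes other than Emb passed in limma and 0.0721% of all genes did, with an unadjusted p under 0.05 for 1 of the 7, Slc16a1, and for 9.63% of all genes. Emb is not counted there, since its value is built from the comparisons that chose it. With arrays of one treatment and number as a random block, 190 genes in place of 116 passed between the sort gates in MDP mice, 2 in place of 1 in MDP against PBS CD103 low cells and 41 in place of 16 in the difference of the MDP effects, and no call among the 8 genes changed. The median over the 8 genes was −0.13 between the sort gates in PBS mice and 0.09 for MDP against PBS CD103 high cells, against medians of 0.00 and −0.01 over all genes.

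Other genes of the pathway were read from lists. Of 23 genes of lactate-forming glycolysis and its hypoxia control, 20 were measured. In MDP against PBS CD103 high cells 2 of the 20 were higher and 0 lower past the threshold, where 1.82% of all genes passed in either direction. These 2 were Pkm, the pyruvate kinase, and Tpi1, triosephosphate isomerase. The median difference of the 20 was 0.17, against −0.01 over all genes. In the other comparisons none of the 20 passed, and the median was 0.04 between the sort gates in MDP mice, −0.07 between them in PBS mice and 0.08 for MDP against PBS in CD103 low cells.

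Pkm read 10.63, 10.62 and 10.67 in MDP and 10.33, 10.27 and 10.27 in PBS CD103 high cells, which did not overlap. It was 0.35 ± 0.06 higher in the MDP cells (limma, adjusted p = 0.0128). Tpi1 read 10.17, 10.28 and 10.22 in MDP and 9.87, 9.77 and 9.86 in PBS CD103 high cells, also apart, and was 0.39 ± 0.08 higher (adjusted p = 0.0218). The adjusted p of Pkm was above 0.05 without MDP CD103 high replicate 2 (0.0531) and without PBS CD103 high replicates 5 or 6 (0.0653 and 0.0682). For Tpi1 it was 0.0569 to 0.106 without any of MDP CD103 high replicates 2, 3 and 4 or PBS CD103 high replicates 5 and 6. Between the sort gates in PBS mice Pkm was −0.15 ± 0.06 and Tpi1 −0.20 ± 0.07, with adjusted p of 0.509 and 0.474.

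**Figure D4:**
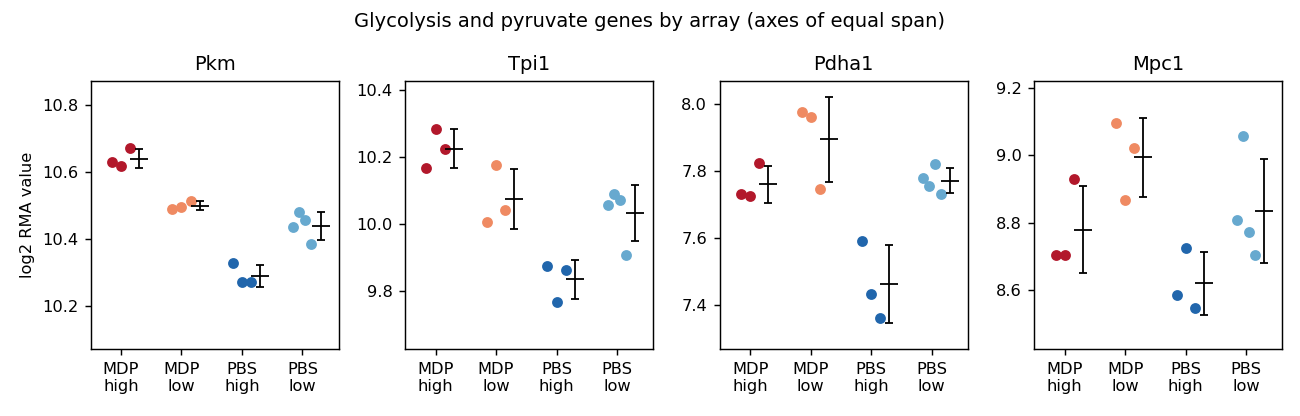
Log2 RMA value (vertical axis, of equal span in each panel) of Pkm, Tpi1, Pdha1 and Mpc1 by array, treatment and sort gate; points are arrays and black bars the group mean ± SD. For Pkm and Tpi1 the 3 arrays of MDP CD103 high cells lie above the 3 of PBS CD103 high cells, and PBS CD103 high cells have the lowest mean in all 4 panels.

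Of 14 genes of mitochondrial pyruvate entry and use, 13 were measured and none passed in any comparison. The 2 with the smallest p were Pdha1, a subunit of pyruvate dehydrogenase, and Mpc1, of the mitochondrial pyruvate carrier. Pdha1 read 7.73, 7.73 and 7.82 in MDP and 7.59, 7.43 and 7.36 in PBS CD103 high cells, a difference of 0.30 ± 0.08 (adjusted p = 0.105). In PBS mice it was −0.31 ± 0.08 in CD103 high against CD103 low cells (adjusted p = 0.272). Mpc1 gave 0.16 ± 0.10 and −0.22 ± 0.10 in these comparisons (adjusted p = 0.573 and 0.578). Both had their lowest mean in CD103 high cells of PBS mice.

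Among 12 measured of 13 other monocarboxylate transporters, 4 had a mean above the olfactory level and none passed. The 2 with the smallest p were Slc16a11, at 0.34 ± 0.10 in MDP against PBS CD103 low cells (adjusted p = 0.741), and Slc5a8, a sodium-coupled transporter, at −0.24 ± 0.07 between the sort gates in MDP mice (adjusted p = 0.25). Both were below the olfactory level in every array, with highest values of 4.92 and 4.30. The 3 other lactate dehydrogenase genes were all below the olfactory level and none passed; Ldhc, the testis form, was −0.24 ± 0.08 between the sort gates in PBS mice (adjusted p = 0.389).

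Genes were also ranked by Pearson's r with Emb over the 13 arrays, among 11715 genes above the olfactory level. The 5 most alike were Adi1 (r = 0.95), an enzyme of methionine salvage, Cdk6 (0.95), a cell cycle kinase, Vcl (0.93), the adhesion protein vinculin, Bcl2 (0.92), an inhibitor of apoptosis, and Anxa2 (0.91), a membrane-binding annexin. The 5 most opposed were Cog2 (−0.93), of a Golgi tethering complex, Lpin2 (−0.93), a phosphatidate phosphatase, Ccnl1 (−0.92), a cyclin of RNA splicing, Cysltr2 (−0.92), a leukotriene receptor, and Fcrla (−0.92), an Fc receptor-like protein. The points share their groups, and 3 of 13 set the low end. Without the CD103 high cells of PBS mice (n = 10) r was 0.86 for Cdk6 and −0.90 for Cog2, and it was 0.52 for Bcl2 and −0.56 for Lpin2. Cdk6 averaged 7.63 in MDP and 6.78 in PBS CD103 high cells, and 7.96 in MDP and 7.65 in PBS CD103 low cells.

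Of the other 7 genes Slc16a1 had r = 0.74 with Emb, but 0.04 over the 10 arrays without the CD103 high cells of PBS mice. Ldhb had 0.70 and 0.27, and Hcar1 −0.67 and −0.20. Itgae had −0.04 and 0.37.

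Other gene groups moved between the same arrays. The mean of 29 cell cycle genes was 8.97 to 9.16 in MDP and 8.21 to 8.60 in PBS CD103 high cells, and 8.20 to 8.64 in MDP and 8.41 to 8.67 in PBS CD103 low cells. In MDP against PBS CD103 high cells 20 of the 29 were higher and 0 lower past the threshold (19 and 0 with the random block), where 1.82% of all genes passed. Between the sort gates in MDP mice 6 were higher and 0 lower (10 and 0 with the random block), where 0.523% of all genes passed. The mean of 25 genes of CCR7-type mature dendritic cells was 7.19 to 7.44 in MDP and 7.91 to 8.28 in PBS CD103 high cells, and 7.83 to 8.83 in MDP and 7.70 to 7.96 in PBS CD103 low cells. Of these 25, 4 were lower and 0 higher in MDP against PBS CD103 high cells (3 and 0 with the random block), against the same 1.82% of all genes. Between the sort gates in MDP mice 3 were lower and 0 higher (5 and 0 with the random block), against 0.523%. Replicate 1 of the MDP CD103 low cells had the highest value of the mature list, 8.83, the lowest of the cell cycle list, 8.20, and the highest Emb value, 7.63. The part of these lists in the Emb, Slc16a1, Pkm and Tpi1 results was not tested.

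**Figure D5:**
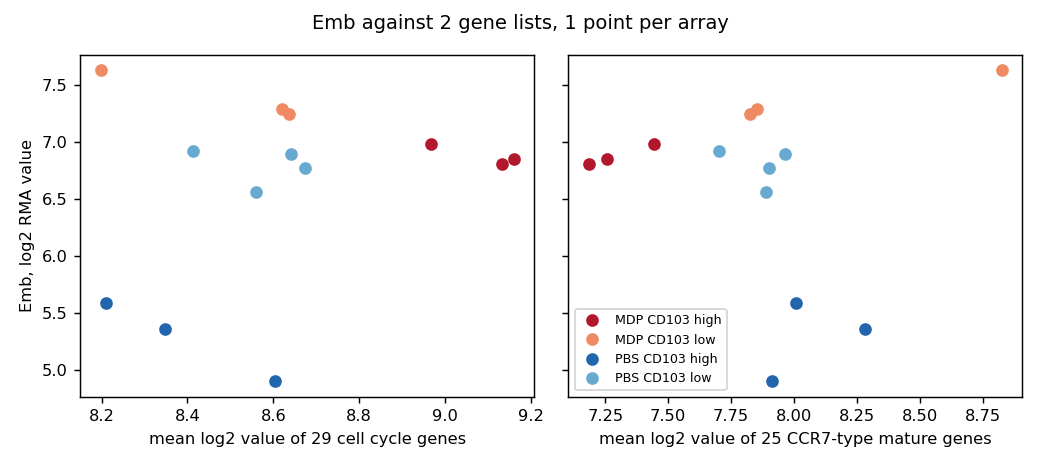
Emb log2 RMA value (vertical axis) against the mean log2 value of 29 cell cycle genes (left) and 25 genes of CCR7-type mature dendritic cells (right); each point is an array, coloured by group. On the left the MDP CD103 high arrays lie to the right, at 8.97 to 9.16, and the PBS CD103 high arrays, at 8.21 to 8.60, share their range with CD103 low cells but have lower Emb values.

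Markers of other cell types were set beside these values. Of 12 measured plasmacytoid dendritic cell markers 2, Pacsin1 and Cd300c, were higher and 0 lower in CD103 high against CD103 low cells of PBS mice. There 0.0766% of all genes passed. The same 2 of the 12 markers were lower in MDP against PBS CD103 high cells, where 1.82% of all genes passed. Their list mean was 6.03 to 6.09 in MDP and 6.13 to 6.25 in PBS CD103 high cells, and 6.12 to 6.22 in MDP and 6.02 to 6.07 in PBS CD103 low cells. Its defining marker Siglech averaged 5.11 in MDP and 5.33 in PBS CD103 high cells, and 5.17 in MDP and 5.24 in PBS CD103 low cells. Of 9 measured B cell markers 1, Fcrla, passed in the same comparisons and directions, and the list mean was 4.93 to 5.15 over all arrays, with ranges that overlapped between the groups except that MDP CD103 high cells, at 4.98 to 5.00, were below PBS CD103 high cells, at 5.04 to 5.13.

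Of 12 cDC2 markers 1, Sirpa, was lower in CD103 high against CD103 low cells of MDP mice (−0.50 ± 0.09, adjusted p = 0.0308), with list means of 4.82 to 4.97 and 5.01 to 5.28. In that comparison 0.523% of all genes passed. No neutrophil, T cell, natural killer cell, erythroid or B16 melanoma marker passed in any of these comparisons. In MDP mice the T cell list mean was 4.43 to 4.59 in CD103 high and 4.65 to 4.93 in CD103 low cells, without overlap. Of its 9 measured genes 3 were lower and 0 higher without overlap there, where 14.4% of all genes did not overlap. Only 1 of the 9 had a mean above the olfactory level. With the random block 1 of 10 natural killer cell markers, Klrk1, was lower in CD103 high against CD103 low cells of MDP mice, where 190 of 22180 genes passed. The part of these markers in the Emb and Slc16a1 results was not tested.

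The monocyte and macrophage list (14 measured, 8 above the olfactory level) had a mean of 5.53 to 5.75 in MDP and 5.72 to 5.79 in PBS CD103 high cells, and 5.69 to 5.92 in MDP and 5.64 to 5.87 in PBS CD103 low cells. None of the 14 passed in the comparisons of the sort gates or of MDP with PBS. Within it Ccr2, a chemokine receptor, averaged 5.91 in MDP and 5.18 in PBS CD103 high cells, and 6.77 in MDP and 6.02 in PBS CD103 low cells, the same order as Emb except that its middle places are exchanged. Its difference was −0.84 ± 0.25 between the sort gates in PBS mice (adjusted p = 0.371) and 0.73 ± 0.27 for MDP against PBS CD103 high cells (adjusted p = 0.245). Its part in the Emb result was not tested.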

How the data were processed

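From each sorted sample 400 ng of RNA was hybridised to 1 of 13 arrays after it was pre-amplified and labelled with biotin, per the labels' protocols. The authors deposited log2 values per probe set, and the submitters' processing notes name RMA and Affymetrix Expression Console. Neither versions nor a genome build are given there. RMA equalises the arrays' distributions, so a change shared by most genes would be removed; array medians were 5.00 to 5.13. The number of arrays limits the precision.

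Of 41345 probe sets, 23521 had 1 symbol in the platform annotation, 1814 several and 16010 were unlisted; they gave 22180 genes, with no filter on low values. The fit used all arrays, limma 3.58.1 in R 4.3.3, 1 mean per group and eBayes, with 9 residual and 3.86 prior degrees of freedom. Tests were two-sided, with Benjamini-Hochberg adjustment over all genes of a comparison. The fit was tested on simulated data. Python 3.11.15 with pandas 2.3.3, numpy 2.4.6 and matplotlib 3.10.9 made tables and plots.

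The genes, the pathway and marker lists and the tests were chosen with earlier results of these data known. From each pathway list, members past the threshold were named, or else the 2 with the smallest p over the comparisons; the 5 genes at each end of the correlation with Emb were named too. Ccr2 was named after its values were seen. Replicate numbers recur between groups without a stated meaning. The 4 pairs of CD103 high and low arrays of one treatment and number had correlated deviations from their group means (r = 0.20 to 0.37) and the same Xist pattern. The numbers may thus pair arrays within a treatment, but the main fit used no block and treated all arrays as independent. Of the fits, only the random block took the numbers to pair arrays in this way. The 5 same-numbered pairs across treatments had r of −0.24 to 0.45, and 3 of them differed in Xist pattern. Alternatives were a variance trend with a robust fit, only the arrays compared, array weights, a replicate block, Xist as a factor, median centring, a filter at the olfactory level, the mean of probe sets, all probe sets and leaving out each array. A random block on treatment and number was added after the data were seen.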

Additional observations from a re-analysis of the deposited data

Results flagged for a closer look

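The check for single values standing apart was run only in groups of 4 arrays. CD103 low cells of PBS mice are the only such group, so the groups of 3 were not examined. In 2 cases the gap to the nearest of the others exceeded 0.829 of the group's range. Hcar2 was 4.62 in replicate 4, and 4.92, 4.93 and 4.94 in the other 3. Ldhc was 4.58 in replicate 3, and 4.35, 4.35 and 4.36 in the others. Of 37 groups of 4 checked, chance flags about 1 in 20, and both genes lay below the olfactory level.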

How the results depend on the processing

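In MDP against PBS CD103 high cells Pkm passed in 18 and Tpi1 in 15 of 23 alternatives. Some of these leave out a CD103 low array, which cannot change the difference itself, so the tallies overstate how stable the calls are. With only the arrays compared, neither passed in limma (adjusted p = 0.0742 for Pkm and 0.0684 for Tpi1). No such tally is given for the differences by which Emb and Hcar1 were chosen. The counts below of how many of the 8 genes passed include them and add no support for them. Outside Bsg, Slc16a1, Slc16a3, Slc16a7 and Ldhb, none of the 8 genes or the pathway genes tested changed sign. With a fixed block on replicate number, which also joins arrays of different treatments, no gene passed in any comparison. The random block on treatment and number changed no call of the 8 genes or of the pathway lists. The cause of these changes was not tested. Values below the olfactory level limit what can be seen for Slc16a7, Ldhb, the second Emb probe set and Hcar1, all of whose CD103 low arrays lie there. The main Emb probe set lies near that level in CD103 high cells of PBS mice, at 4.90 to 5.58.

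Between the sort gates in MDP mice 116 genes passed. There were 192 with variance trend, 0 with only the arrays compared, 0 with the replicate block, 61 with Xist, 228 with the filter, 1 among all probe sets, 190 with the random block and 0 to 140 without each array. In PBS mice 17 passed, against 1 with only the arrays compared, 0 with the replicate block, 11 after centring, 4 among all probe sets and 2 to 23 without each array. Of the 8 genes 2 passed there, the chosen Emb and Hcar1, so that these counts support nothing, against 0 with only the arrays compared and 0 with the replicate block, 1 after centring, 1 with the filter, 1 among all probe sets and 1 to 2 without each array.

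In MDP against PBS CD103 high cells 403 passed, against 609 with variance trend, 200 with only the arrays compared, 0 with the replicate block, 699 with the filter, 176 among all probe sets and 82 to 594 without each array. Of the 8 genes 1 passed, the chosen Emb, against 2 with the trend, only the arrays compared, array weights and the filter, 0 with the replicate block and 1 to 2 without each array. In CD103 low cells 1 gene passed, against 0 with the trend, only the arrays compared, the replicate block and all probe sets, 2 with the random block and 0 to 2 without each array. For the difference of MDP effects 16 passed, against 116 with the trend, 35 with weights, 0 with the replicate block, Xist, centring or all probe sets, 134 with the filter, 41 with the random block and 0 to 107 without each array. The count among the 8 genes was 0, and 1 with the filter; that gene is Emb, whose value there is built from the comparisons that chose it. That comparison uses all 4 groups and was not run on fewer.

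The differences that changed sign did not pass before or after, and the largest of them was 0.23, for Slc16a7. Between the sort gates in MDP mice Bsg was −0.0096 with weights, −0.0185 with the replicate block, −0.0066 with Xist, −0.0233 after centring, −0.0047 with the random block and −0.0348 to 0.0286 without each array. Slc16a1 was −0.0077, −0.0192, −0.0111, −0.0177 and −0.0016 in the same 5 settings and −0.0554 to 0.0859 without each array, and Slc16a3 −0.007 to 0.1187. In PBS mice Bsg was −0.0181 with the replicate block. In MDP against PBS CD103 high cells Slc16a7 was −0.0554 with the replicate block, and without each array Bsg was −0.0257 to 0.0377 and Slc16a3 −0.0219 to 0.0548. In CD103 low cells Slc16a1 was −0.0182 with the replicate block, Ldhb −0.0029 with the random block and −0.0224 to 0.0315 without each array, and Slc16a3 −0.0531 to 0.0727. In the difference of MDP effects Slc16a3 was −0.0017 with weights, −0.0037 after centring, −0.0005 with the random block and −0.0485 to 0.0773 without each array, and Bsg −0.0506 to 0.0128.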

Other observations

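Slc16a3 and the second Emb probe set each had 1 value that recurred to 5 decimals in 3 arrays, and Slc5a8 had 1 that recurred in 4. The same held in at least 3 arrays for 5350 of the 22180 genes, or 24.1%. It was 16.6% of the 11716 genes above the olfactory level and 32.6% of the 10464 at or below it.

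Between arrays of one treatment and number, Emb was lower in the CD103 high array by 0.43 and 0.44 in MDP mice (replicates 2 and 3) and by 1.66 and 1.33 in PBS mice (replicates 4 and 6). Hcar1 was higher by 0.39 and 0.39 in MDP mice and by 0.54 and 0.90 in PBS mice. The values of PBS mice are part of the differences that chose both genes, so they add no support.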
